A study of Homo sapiens with 16 samples.

Results

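The genes described here are the forkhead (FOX) and SOX transcription factor genes, taken as the protein-coding genes of the human annotation whose symbol is FOX with a letter and a number, or SOX with a number. This gave 63 genes, 45 FOX and 18 SOX, of 19974 protein-coding genes, and 1 further SOX gene is not analysed here. Accessible regions were assigned to a gene when they lay in its span or within 10 kb of it. The windows of the 63 genes held 412 regions, of 112527 regions within 10 kb of any protein-coding gene and 183659 regions in all. Accessibility had been mapped by NicE-seq, in which the nicking enzyme Nt.CviPII and DNA polymerase I put biotinylated nucleotides into open chromatin of fixed nuclei before capture on streptavidin. The cells were U87, an established human glioblastoma line, in 4 groups of 4 libraries. Vehicle cells received DMSO alone, and belinostat cells received 1 µM belinostat, an inhibitor of histone deacetylases, for 24 h. AsiDNA cells carried AsiDNA, a short double-stranded DNA that imitates a broken DNA end, with DMSO, and combination cells carried AsiDNA with the same belinostat exposure. The sources used here give no dose or timing for AsiDNA. The labels name U87 cells for every sample, while their protocol text speaks of MTU87 and LTAU87 cells, so it is not settled whether the AsiDNA groups are a derived line. All 4 libraries of a group name the same peak list, so each group is 1 list with no replicate spread. No p-value was computed, and each interval below is a Wilson 95% interval of a share, covering counting error alone. Read depth is unknown, and in bulk libraries a weaker opening and fewer cells with open chromatin cannot be told apart.

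FOX proteins bind DNA through a winged-helix domain called the forkhead box, and some of them, FOXA proteins above all, can engage sites in closed chromatin and open them. SOX proteins bind the minor groove through an HMG box, bend the DNA and usually act with partner factors. Subfamilies carry letters or groups with shared roles. FOXO proteins are effectors of insulin and stress signalling held in check by AKT, FOXM1 drives genes of mitosis, and FOXP proteins are repressors with roles in brain and immune development. Among SOX genes, SoxB1 genes maintain neural progenitors, SoxE genes direct neural crest and glial fates, SoxD genes modulate SoxE activity, SoxC genes act in neuronal differentiation and SoxF genes in endothelium. Several SOX genes, SOX4 and SOX9 among them, are known from glioma.

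Within 1 kb of transcript starts, these genes were open in every list or in none. A start was known for 43 of the 63 genes from the RefSeq sequence table (GRCh38.p14), and a peak within 1 kb of it was present in all 4 lists for 21 genes (48.8%, interval 34.6 to 63.2) and in no list for 22 (51.2%, 36.8 to 65.4). It was present in some lists only for 0 of 43 genes (up to 8.20% by the interval). Over the 15812 protein-coding genes with a start in the table these shares were 63%, 30.5% and 6.43%. The absence of mixed starts did not hold at other window sizes. Within 500 bp, 19 of the 43 genes had a peak in all lists and 22 in none, and within 2000 bp 23 and 19. FOXA3 counted as open through a peak near SYMPK, 736, 712 and 713 bp from its start in vehicle, AsiDNA and combination. Over the start itself it had a peak in belinostat alone (chr19:45864095-45864343). The sequences of 250 bases upstream of 8 starts are shown because the bases before a start differed less between open and closed members than between open and closed genes in general. Capitals mark CG dinucleotides, the letters are those of the coding strand read 5′ to 3′, and the source is RefSeq. The first 4 are of genes with a peak over the start in every list, at chr6:21593501-21593750 on the plus strand for SOX4, chr20:325302-325551 on the plus strand for SOX12, chr6:1609665-1609914 on the plus strand for FOXC1 and chr5:73448778-73449027 on the minus strand for FOXD1.
SOX4: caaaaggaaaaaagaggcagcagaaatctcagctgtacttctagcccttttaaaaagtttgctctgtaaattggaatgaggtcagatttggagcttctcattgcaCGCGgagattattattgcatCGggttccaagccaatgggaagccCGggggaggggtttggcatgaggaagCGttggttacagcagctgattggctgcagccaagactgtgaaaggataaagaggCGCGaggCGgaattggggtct
SOX12: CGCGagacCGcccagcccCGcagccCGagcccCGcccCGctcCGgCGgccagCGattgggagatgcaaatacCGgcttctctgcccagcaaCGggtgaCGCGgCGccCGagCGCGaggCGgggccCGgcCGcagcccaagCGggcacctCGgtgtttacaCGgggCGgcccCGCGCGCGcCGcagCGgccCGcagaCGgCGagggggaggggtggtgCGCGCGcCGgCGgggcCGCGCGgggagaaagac
FOXC1: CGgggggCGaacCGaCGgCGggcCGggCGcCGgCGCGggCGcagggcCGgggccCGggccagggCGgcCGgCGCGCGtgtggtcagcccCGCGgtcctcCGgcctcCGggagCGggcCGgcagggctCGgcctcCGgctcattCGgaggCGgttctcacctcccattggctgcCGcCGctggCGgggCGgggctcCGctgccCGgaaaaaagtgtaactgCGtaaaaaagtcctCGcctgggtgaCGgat
FOXD1: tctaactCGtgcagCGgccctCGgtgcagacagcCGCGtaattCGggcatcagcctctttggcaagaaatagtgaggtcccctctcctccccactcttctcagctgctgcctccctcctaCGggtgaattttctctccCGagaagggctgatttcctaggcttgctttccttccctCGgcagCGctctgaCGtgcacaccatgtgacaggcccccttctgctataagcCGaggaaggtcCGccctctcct
SOX4, a SoxC gene of neuronal and tumour cells, had 8 CG in these 250 bases and was open at its start in all lists, with 250, 250, 250 and 246 of the bases under a peak in vehicle, belinostat, AsiDNA and combination. FOXD1, a gene of kidney stroma and retina, had 13, while FOXC1, a gene of mesenchyme and eye development, had 37 and SOX12, a SoxC gene, had 42. All 250 bases of these 3 genes lay under a peak in each list. The next 4 are of genes with no peak within 1 kb of the start in any list, at chr13:112066899-112067148 on the plus strand for SOX1, chrX:140505070-140505319 on the minus strand for SOX3, chr14:37595250-37595499 on the minus strand for FOXA1 and chr9:97852976-97853225 on the plus strand for FOXE1.
SOX1: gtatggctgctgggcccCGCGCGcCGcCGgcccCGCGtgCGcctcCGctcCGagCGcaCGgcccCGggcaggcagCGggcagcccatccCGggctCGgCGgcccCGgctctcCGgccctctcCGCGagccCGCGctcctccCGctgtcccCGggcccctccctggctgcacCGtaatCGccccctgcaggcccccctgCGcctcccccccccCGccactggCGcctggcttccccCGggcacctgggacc
SOX3: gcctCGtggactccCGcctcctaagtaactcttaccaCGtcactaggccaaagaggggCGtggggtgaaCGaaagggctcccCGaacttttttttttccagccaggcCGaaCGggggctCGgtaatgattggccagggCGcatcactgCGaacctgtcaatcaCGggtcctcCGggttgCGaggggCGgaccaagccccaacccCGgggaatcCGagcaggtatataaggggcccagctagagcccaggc
FOXA1: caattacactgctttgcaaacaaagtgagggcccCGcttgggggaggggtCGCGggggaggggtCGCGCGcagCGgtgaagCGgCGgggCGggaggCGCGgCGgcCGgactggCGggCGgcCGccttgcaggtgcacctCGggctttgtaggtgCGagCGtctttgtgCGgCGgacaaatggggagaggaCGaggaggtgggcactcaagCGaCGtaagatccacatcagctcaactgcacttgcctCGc
FOXE1: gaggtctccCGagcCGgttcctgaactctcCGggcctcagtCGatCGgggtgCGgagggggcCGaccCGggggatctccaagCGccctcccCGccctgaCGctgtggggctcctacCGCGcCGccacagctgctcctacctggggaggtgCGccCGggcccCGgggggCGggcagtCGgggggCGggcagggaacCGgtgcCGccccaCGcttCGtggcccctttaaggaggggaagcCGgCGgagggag
SOX1 and SOX3 are the SoxB1 genes measured here, FOXA1 is a factor of endoderm and hormone-responsive epithelium, and FOXE1 is a thyroid factor. They had 31, 17, 26 and 26 CG. The nearest peak to the SOX1 start was 212507 bp away in vehicle, 212021 in belinostat, 104201 in AsiDNA and 34613 in combination. For FOXA1 it was 279443, 279346, 279493 and 279380 bp away, and for SOX3 186412, 229602, 229592 and 218180 bp. FOXE1 had its nearest vehicle peak at 21867 bp and its nearest AsiDNA peak at 23459 bp, against 3422 bp in belinostat and 5055 bp in combination. These 4 closed starts were thus as rich in CG as many open ones, and the peaks of both belinostat lists came closer to FOXE1 without reaching its start. The 8 starts are examples, and over all members the closed starts had the lower median, 18 CG against 27 in open ones.

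Over all matched members, the 250 bases upstream held a median of 27 CG in the 21 open genes (quartiles 17 and 37, range 0 to 44) and 18 in the 22 closed genes (13.25 and 25.75, range 1 to 31). Other protein-coding genes had a median of 21 where open in all lists (14 and 28, 9947 genes) and 5 where closed in all lists (2 and 16, 4805 genes). At least 10 CG were found in 19 of the 22 closed members (86.4%) and in 36.4% of the other closed genes. The median GC content was 73.6% in open and 67% in closed members, and 64.8% and 55.2% in other open and closed genes. The enzyme nicks at CCA, CCG and CCT, and these 3-base sites, counted on both strands with overlaps allowed, had medians of 41 in open and 38.5 in closed members, against 37 and 30 in other genes. FOXP2, an open member with 0 CG, has its table start inside the gene body, far from the outer end of its span. Few of the 43 windows held the core letters the families bind. TGTTTAC occurred upstream of SOX12 alone (2.33%, against 2.26% of all 15812 genes), and TATTTAC upstream of FOXB1 alone (2.33% against 1.83%). The SOX letters ACAATGG occurred in FOXJ3, SOX5 and FOXO4 (6.98% against 1.88%), and ACAAAG in FOXD3, FOXI2, FOXA1 and FOXO3 (9.30% against 10.9%). Both strands were searched, and a match of letters is not evidence of a bound site.

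**Figure D1:**
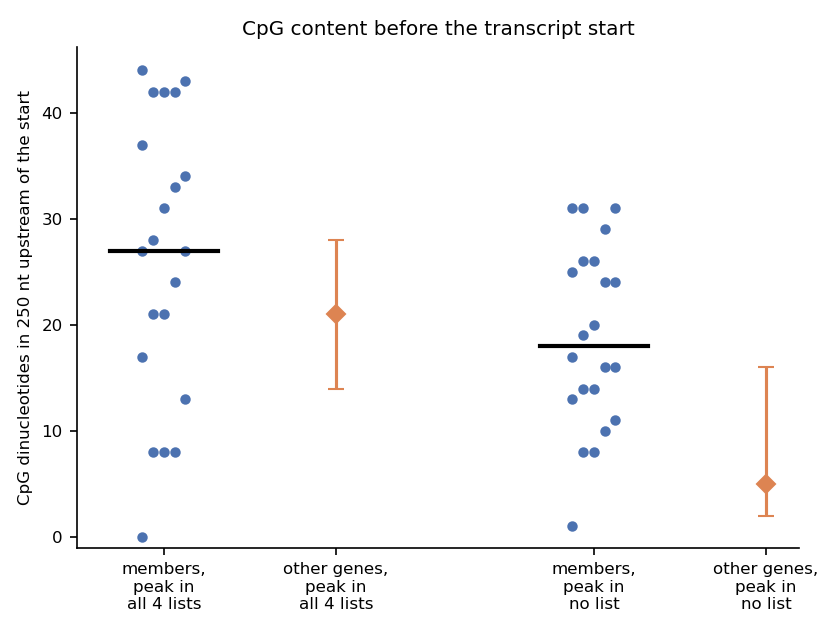
CG dinucleotides in the 250 bases upstream of the transcript start, as 1 point per FOX or SOX gene with its median as a bar, for genes with a start peak in all 4 lists (n = 21) and in no list (n = 22); diamonds and whiskers give the median and quartiles of other protein-coding genes. Closed members have a median of 18, against 5 in other closed genes.

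At either end of the gene, which could be scored for all 63 genes, a peak within 1 kb was present in all lists for 31 (49.2%, interval 37.3 to 61.2, against 64.1% of all protein-coding genes). It was absent from all lists for 25 (39.7%, 28.5 to 52.0, against 27.4%) and present in 1 to 3 lists for 7 (11.1%, 5.49 to 21.2, against 8.47%). FOX genes supplied 24 of the 31 open genes and SOX genes 7. The windows of 10 genes held no region in any list (15.9%, against 7.01% of all protein-coding genes). These were FOXA1 and FOXA2, the pioneer factors of endoderm; FOXB2; FOXI2; FOXR1 and FOXR2; the SoxB1 genes SOX1 and SOX3; the neuronal SoxC gene SOX11; and the SoxE gene SOX8. Some subfamilies were uniform. All 4 FOXO, 3 FOXJ, 2 FOXK and 2 FOXC genes and all 3 SoxD genes (SOX5, SOX6 and SOX13) were open at an end in every list. None of 3 FOXI, 2 FOXR, 2 SoxB1 and 2 SoxB2 genes was open at an end in any list. Others were mixed, with 1 of 3 FOXA, 1 of 2 FOXB, 2 of 4 FOXD, 2 of 4 FOXN, 3 of 4 FOXP, 2 of 3 SoxC and 1 of 3 SoxE genes open at an end in every list.

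The number of regions followed gene size in part. The 8 genes longer than 100 kb held 214 of the 412 regions, and the 5 genes with most regions held 175 (42.5%). FOXP1, a repressor of neuronal and lymphoid development, led with 69 regions in a window of 649271 bp, or 10.6 per 100 kb. SOX5, the longest SoxD gene, had 35 (3.32 per 100 kb), FOXO3 26 (17.9), FOXP2, a gene tied to speech, 23 (3.67), and FOXJ3 and FOXN3 had 22 each (12.3 and 4.55). SOX6 had 9 in 792029 bp (1.14 per 100 kb). Large genes therefore differed in density, with FOXO3 several times denser than SOX5 or SOX6. By share of the window covered in vehicle, small genes led, with FOXL1 at 14.6%, FOXD1 at 12.8%, FOXC2 at 12.5% and FOXH1 at 12.4%. FOXL1 and FOXC2 lie 8820 bp apart and shared 2 regions.

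**Figure D2:**
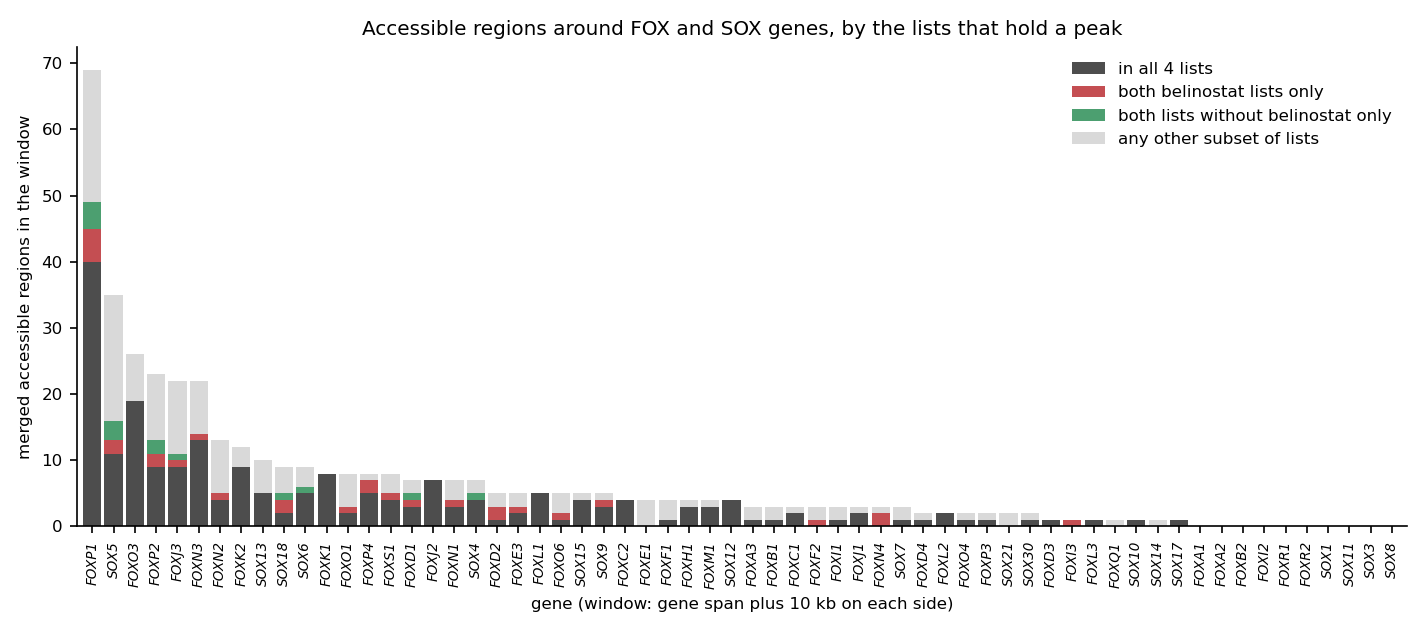
Merged accessible regions in the window of each FOX or SOX gene reported (bars, number of regions), divided by the lists that hold a peak. FOXP1 has 69 regions, of which 40 are in all lists, and 10 genes have none.

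Of the 412 regions, 279 (67.7%) lay in gene bodies and 133 in the flanks. Within 1 kb of the gene's own end 43 of 59 regions were present in all lists (72.9%), against 169 of 353 farther away (47.9%). This split was made for the members alone, so whether other genes differ from them in it is not known. Another protein-coding gene had an end within 1 kb of 22 regions, so those cannot be assigned to the FOX or SOX gene alone. The open end of FOXM1 is an example, since an end of RHNO1 lies beside it. The windows held 296, 331, 305 and 311 peaks in vehicle, belinostat, AsiDNA and combination, covering 148791, 160598, 162660 and 149018 bp. Over chromosomes 1 to 22 and X the lists held 130318, 138937, 138273 and 134865 peaks. Ranked by the authors' fold enrichment within each list, the members' peaks had median percentiles of 42.2, 42.0, 45.5 and 45.5, and all peaks near protein-coding genes had 51.9, 52.1, 51.6 and 52.2. Peaks at FOX and SOX genes thus had lower median ranks than peaks near genes in general in every list.

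Some member regions nevertheless ranked near the top of every list. The highest was at the annotated start of SOX6 (chr11:16737944-16739009), where C11orf58 also lies, with the authors' fold enrichment at 15.3, 21.5, 13.7 and 21.4. Next came regions within the spans of FOXP2 (chr7:114554795-114555224, 14.9, 15.3, 18.6 and 15.2; chr7:114409751-114410151, 17.7, 16.2, 15.0 and 14.9) and FOXP1 (chr3:71542437-71543094, 16.4, 14.7, 17.4 and 15.0). A region 4974 bp upstream of FOXJ2 (chr12:8026267-8027742) followed, at 12.6, 18.1, 12.6 and 16.3. These 5 regions ranked high with and without each drug, and only the SOX6 region reached a gene end. Fold enrichments are not scaled between lists and are not compared as levels.

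The presence patterns of the 412 regions were close to those of other regions near genes. All lists held 212 (51.5%, interval 46.6 to 56.3, against 54.5%). Both lists with belinostat, and no other, held 29 (7.04%, 4.95 to 9.93, against 6.27%), in the windows of 19 genes. Both lists without belinostat, and no other, held 15 (3.64%, 2.22 to 5.92, against 4.86%), in 9 genes. The corresponding numbers for AsiDNA were smaller, with 5 regions in both AsiDNA lists only (1.21% against 1.09%) and 6 in both lists without AsiDNA only (1.46% against 0.789%). Both single-drug lists alone shared 7 (1.70% against 1.29%), and vehicle and combination alone shared 2 (0.485% against 0.592%). A single list held 85 (20.6% against 20.5%), namely 21 in vehicle, 28 in belinostat, 22 in AsiDNA and 14 in combination. For each of the 15 patterns the background share lay inside the interval of the member share.

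**Figure D3:**
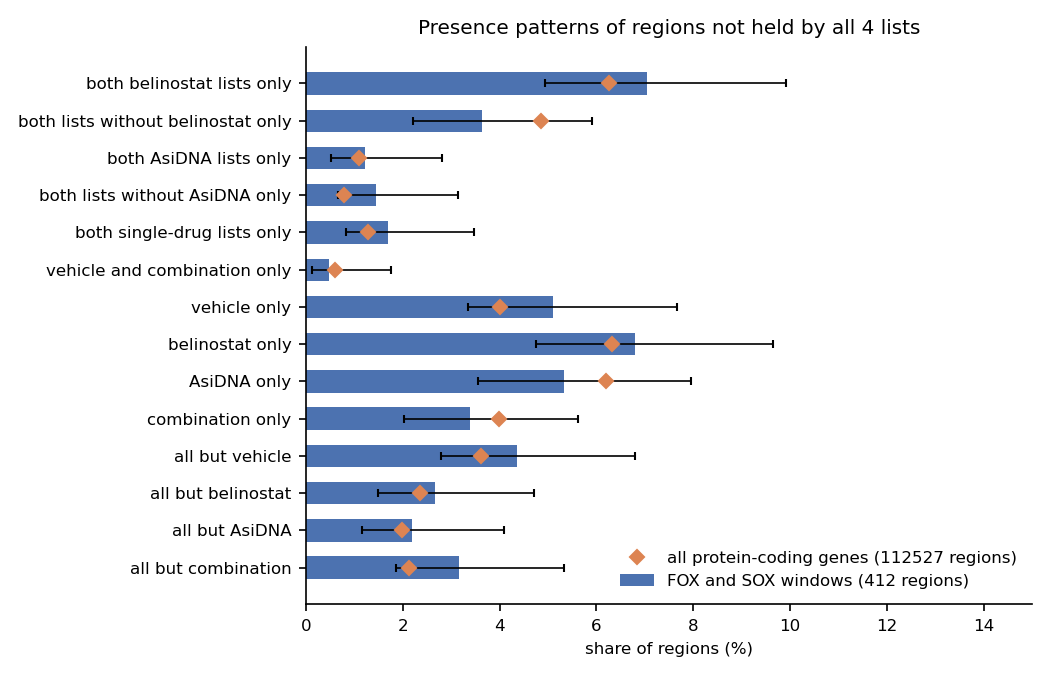
Share of regions (percent) in each presence pattern other than all 4 lists, for FOX and SOX windows (bars with Wilson 95% intervals, 412 regions) and for all protein-coding genes (diamonds, 112527 regions). Each diamond lies within the interval of its bar; belinostat-only pairs (7.04%) exceed the reverse pattern (3.64%) in members, as 6.27% exceeds 4.86% in the background.

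List by list, belinostat showed 82 of 322 regions that vehicle lacked (25.5% against 22.8%) and vehicle 49 of 289 that belinostat lacked (17.0% against 16.6%). On the AsiDNA background, combination showed 54 of 300 regions that AsiDNA lacked (18.0% against 17.3%) and AsiDNA 57 of 303 that combination lacked (18.8% against 19%). AsiDNA showed 52 of 303 regions absent from vehicle (17.2% against 16%), and vehicle 38 of 289 absent from AsiDNA (13.1% against 10.4%). On the belinostat background, combination showed 32 of 300 regions that belinostat lacked (10.7% against 10.8%), and belinostat 54 of 322 that combination lacked (16.8% against 13.7%). These pairs share lists and were not set against each other. With belinostat, gains outnumbered losses against vehicle but not against AsiDNA, and the difference between these backgrounds was not tested. Regions near all genes showed the same order, with 19698 gains and 13296 losses against vehicle and 14446 and 16281 against AsiDNA. It is therefore not particular to FOX and SOX genes. In each pair the list with more unshared regions was also the longer list.

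Among regions with a peak in both belinostat lists only, the best ranked lay within FOXJ3, a widely expressed forkhead gene, at chr1:42282022-42282583. The peak was 468 bp wide in each of belinostat and combination, with fold enrichments of 11.7 and 7.97. FOXO1, an effector of insulin signalling, had one at chr13:40562828-40563518, 7161 bp inside its 3′ end, 691 and 490 bp wide with fold enrichments of 6.27 and 7.79. Neither gene had a peak there in vehicle or AsiDNA. FOXP1 (chr3:71095935-71096300), FOXN3, a checkpoint repressor (chr14:89482144-89482510), and FOXN1, the thymic epithelial factor (chr17:28509912-28510154), had further ones in their bodies. FOXP4 had one 7797 bp downstream (chr6:41610181-41610467). Their fold enrichments were between 5.31 and 7.09 in belinostat and between 5.54 and 6.17 in combination. By gene, FOXP1 had 5 such regions, and SOX5, FOXP2, FOXN4, FOXP4, SOX18 and FOXD2 had 2 each.

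The reverse pattern, a peak in vehicle and AsiDNA only, was led by a FOXP1 region (chr3:71341696-71342051), 356 and 248 bp wide with fold enrichments of 6.86 and 6.77. SOX5 had one at chr12:24487658-24488231, 574 and 311 bp wide (8.04 and 6.31), and one at chr12:24033736-24033949, 213 and 212 bp wide (5.88 and 6.21). SOX6, the other large SoxD gene, had one at chr11:15969971-15970276, 3522 bp inside its 3′ end (5.99 and 5.54). A second FOXP1 region (chr3:71144424-71144859) and one in FOXJ3 (chr1:42190032-42190285) completed the best 6. FOXP1 thus had 5 regions confined to the belinostat lists and 4 confined to the lists without it, SOX5 had 2 and 3, and FOXP2 had 2 and 2. These 3 long genes had regions in both directions.

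The 5 regions in both AsiDNA lists only lay in FOXJ3 (chr1:42222207-42222511, fold enrichments 5.14 and 3.69 in AsiDNA and combination), FOXN2 (chr2:48320844-48321111, 3.38 and 6.80), SOX13 (chr1:204102925-204103289, 3.04 and 3.69), FOXP1 beside its start (chr3:71582990-71583353, 3.61 and 2.93) and SOX15 (chr17:7589253-7589560, 2.62 and 3.19). SOX13 is the smallest SoxD gene and SOX15 the SoxG gene. The 6 in both lists without AsiDNA only lay in FOXJ3, FOXP1, FOXP2, FOXO4, FOXH1 and SOX13, the best ranked being FOXJ3 at chr1:42319647-42319929 (4.81 and 4.80 in vehicle and belinostat) and FOXP1 at chr3:71201997-71202417 (5.20 and 4.40). FOXP2 (chr7:114539739-114539983) had 4.02 and 3.94 and FOXO4 (chrX:71098398-71098669) 4.70 and 3.72. FOXJ3, FOXP1 and SOX13 therefore appear in both AsiDNA directions. Each of these patterns is a handful of single loci.

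Of the 7 genes whose end was open in some lists only, FOXN4, a gene of retinal and spinal interneurons, had the differing peak closest to the end. At its 3′ end a peak stood at chr12:109277970-109278385 in belinostat and chr12:109278007-109278348 in combination, covering the end in belinostat and 29 bp from it in combination, with fold enrichments of 4.37 and 4.39, while the nearest vehicle and AsiDNA peaks to that end were 13395 and 13419 bp away. FOXE3, a lens gene, had a peak 685 and 866 bp beyond its higher-coordinate end in belinostat and combination, with fold enrichments of 3.01 and 2.77, against 6279 and 6323 bp in vehicle and AsiDNA. SOX18, a SoxF gene of endothelium, had an end peak in vehicle alone (535 bp away, fold enrichment 2.55), and FOXF1, a mesenchymal gene, in combination alone (723 bp, 2.76). SOX7, another SoxF gene, had one in all lists but AsiDNA, at 628, 736 and 577 bp in vehicle, belinostat and combination and 12212 bp in AsiDNA. The vehicle and belinostat peaks lay outside the gene (fold enrichments 3.01 and 5.66), in a region that combination also held. The nearest combination peak was a separate one inside the gene (chr8:10724345-10724758, 2.73), held by combination only. FOXS1 was lost from belinostat only through the limit of the window, since its region was present in all lists at 950, 1015, 938 and 930 bp. FOXD4 had a 3′ peak in all lists but combination, at 932, 606, 808 and 6343 bp. Its fold enrichments were 2.78, 3.06 and 4.15 in vehicle, belinostat and AsiDNA. FOXD4 has near-identical copies elsewhere in the genome, so its reads may be divided among them, which was not tested. Of these 7, only FOXN4 and FOXD4 have a known start, and neither had a peak within 1 kb of it. Several of the differing end peaks were weak, with a −log10 q of 2.95 and 2.16 for FOXE3 in belinostat and combination. The value was 3.09 for SOX18 in vehicle, 2.46 for FOXF1 in combination, and 2.56 and 1.94 for SOX7 in vehicle and combination. For FOXD4 it was 2.47 and 2.86 in vehicle and belinostat. It was higher for FOXN4 (8.30 and 8.94), for SOX7 in belinostat (11.6) and for FOXD4 in AsiDNA (6.65).

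Covered sequence, the bases of a gene's window under peaks, moved with belinostat on both backgrounds more often upward than downward. It was at least 1.25 times higher in belinostat than in vehicle, and in combination than in AsiDNA, for 8 of the 53 genes with a region (15.1%, against 6.95% of protein-coding genes with a region). It was lower by that factor on both backgrounds for 2 (3.77% against 5.63%). All 10 genes have at most 9 regions, and among genes with at most 9 regions, a limit chosen after the values were seen, the shares upward were 18.2% of 44 members and 7.76% of all genes. With only peaks at a −log10 q of 5 or more, the shares were 9.80% of 51 members and 7.9% of all genes, and of the 8 genes only FOXO1, FOXI3 and SOX18 were still among the 5 counted. Downward moves under that threshold numbered 4 (7.84% against 5.7%). With these stronger peaks alone both member shares were near the background, and 5 genes moved upward and 4 downward.

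SOX9, the SoxE gene of astroglia and cartilage, was covered over 2331 bp in vehicle, 4028 in belinostat, 2426 in AsiDNA and 3446 in combination. Both belinostat lists were above both others. Its largest share of the difference was a region 8513 bp beyond the gene (chr17:72134929-72135917), covered over 786 bp in belinostat and 723 bp in combination and absent from the others. Its region over the gene (chr17:72120025-72122173) was covered over 1354, 1744, 1720 and 1524 bp, with no order by drug, and lies also under the antisense gene SOX9-AS1. SOX18 was covered over 1159, 2632, 1462 and 2290 bp, with 5 of its 9 regions in or beside the neighbouring genes TCEA2 and C20orf204. FOXO1 was covered over 1627, 2267, 1322 and 2203 bp, of which 691 and 490 bp in belinostat and combination lay in the region named above. FOXS1, a gene of vascular mural cells, had 1939, 2473, 1978 and 2536 bp, with 3 of its 8 regions in DUSP15.

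The other 4 genes with more covered sequence were FOXE3, FOXF1, FOXE1 and FOXI3. FOXE3 had 866, 2272, 858 and 1394 bp, all within the span of LINC01389, and FOXF1 had 492, 820, 420 and 694 bp. Of the FOXF1 bases, 384 in belinostat and 278 in combination lay in different regions, each held by that list alone. The FOXF1 region held by all lists was 256, 436, 420 and 416 bp wide, so it hardly differed between AsiDNA and combination. FOXE1 had 0, 549, 0 and 670 bp, but from 4 regions of which belinostat held 2 and combination the other 2, so no position was shared. FOXI3, a gene of ectodermal placodes, had 0, 287, 0 and 229 bp from 1 region 4058 bp downstream (chr2:88442443-88442729). The 2 genes with less were FOXD1, with 2884, 1800, 2849 and 1833 bp, and FOXD3, a neural crest gene, with 547, 265, 701 and 265 bp from a single upstream region. Most of the FOXD1 difference lay in the peak at its start, 1738, 717, 1712 and 692 bp wide. That peak and the FOXD3 region are among the narrower regions described below, so the 2 descriptions are not separate observations. For AsiDNA on both backgrounds, 1 gene had at least 1.25 times more (1.89% against 1.96%), FOXC1 with 1282, 1305, 1865 and 1660 bp, and 1 had less (1.89% against 1.77%), FOXN4 with 777, 1013, 534 and 649 bp.

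**Figure D4:**
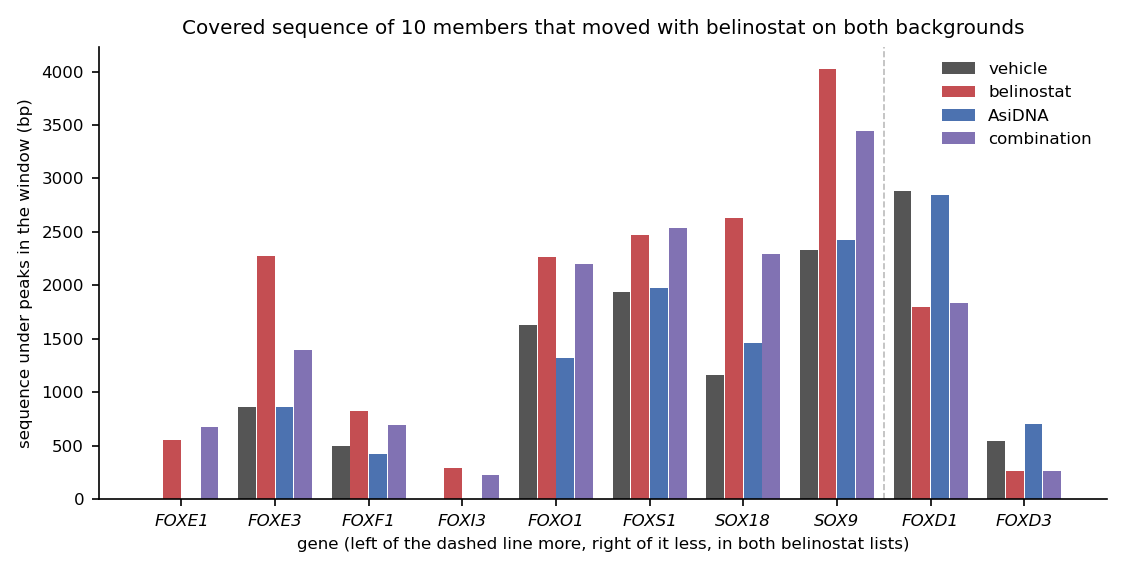
Bases under peaks in the window of the 10 FOX and SOX genes whose covered sequence differed by at least 1.25 times with belinostat on both backgrounds, as 1 bar per list. SOX9 reaches 4028 bp in belinostat and 3446 bp in combination against 2331 and 2426 bp in vehicle and AsiDNA, and FOXD1 is at 1800 and 1833 bp in belinostat and combination against 2884 and 2849 bp.

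In the 212 regions held by all lists, peak width hardly differed on the whole. The median ratio of widths was 1.02 for belinostat over vehicle (quartiles 0.86 and 1.20; median 1.01 near all genes) and 0.94 for combination over AsiDNA (0.80 and 1.07; 0.95). It was 1.06 for AsiDNA over vehicle (0.93 and 1.23; 1.04) and 0.99 for combination over belinostat (0.84 and 1.10; 0.99). On both backgrounds 55 regions were wider with belinostat by any amount (25.9% against 26.3%) and 74 narrower (34.9% against 35.1%). A change of at least 1.5 times on both backgrounds was found in 6 wider regions (2.83% against 1.91%) and 6 narrower ones (2.83% against 2.27%). Over all member peaks, shared or not, the median width was 418.5, 406, 443 and 419 bp in vehicle, belinostat, AsiDNA and combination. All peaks near protein-coding genes had medians of 412, 421, 424 and 413 bp.

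FOXD1 had the lowest ratio of belinostat over vehicle, 0.41, at its own start (chr5:73447634-73449377), over the sequence printed above. Its peak ran from 73447640 to 73449377 in vehicle and from 73447634 to 73449345 in AsiDNA, 1738 and 1712 bp. In belinostat it ran from 73448414 to 73449130 and in combination from 73448444 to 73449135, 717 and 692 bp. The summits were at 73448827, 73448813, 73448875 and 73448812 in vehicle, belinostat, AsiDNA and combination. The summits thus stayed close together while both sides of the peak were shorter in the belinostat lists, the side over the gene body by more. Its fold enrichment was at percentiles 60.7, 81.0, 54.3 and 82.4 of the 4 lists in that order. The narrower peaks therefore ranked higher within their lists than the wider ones did in theirs. The remaining narrower regions were 2 in FOXP1 (chr3:71063710-71065701, 1992, 1024, 1775 and 1073 bp; chr3:71127315-71127866, 395, 242, 552 and 326 bp), and 1 each near FOXD3 (547, 265, 701 and 265 bp), in FOXJ3 (371, 244, 499 and 312 bp) and in FOXP4 (480, 312, 504 and 236 bp). The first FOXP1 region was also the widest member region in vehicle. Next in width were the regions over the start of FOXJ3 (chr1:42334301-42336296, 1908, 1584, 1909 and 1663 bp), in SOX6 (chr11:16604592-16606683, 1763, 1578, 2092 and 1818 bp) and at FOXD1, and one in FOXP1 (chr3:71536141-71537699, 1453, 903, 1313 and 1021 bp). These were chosen by their width in vehicle, so no comparison with vehicle is drawn from them.

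Among the wider regions, FOXK2, a nuclear repressor that competes with FOXO factors, had the largest ratios, 2.44 against vehicle and 2.37 against AsiDNA (chr17:82580147-82580955, 332, 809, 280 and 663 bp). FOXN2 had 229, 396, 202 and 455 bp (chr2:48346152-48346606), and SOX18 had 223, 480, 297 and 494 bp in its right flank (chr20:64055822-64056324), within TCEA2 and near an end of it. FOXO3, a stress-response factor, had 383, 597, 418 and 643 bp (chr6:108608915-108609653). FOXP2 (chr7:114112099-114113020) had 284, 551, 498 and 922 bp, and FOXP1 (chr3:70973471-70974463) 295, 507, 473 and 894 bp. In these 2 regions combination was the widest and vehicle the narrowest of the lists. FOXP1 alone had 40 regions in all lists, of which 11 were wider and 19 narrower with belinostat on both backgrounds (26.3% and 35.1% of shared regions near all genes), and its covered sequence was 30936, 27026, 30097 and 27199 bp.

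**Figure D5:**
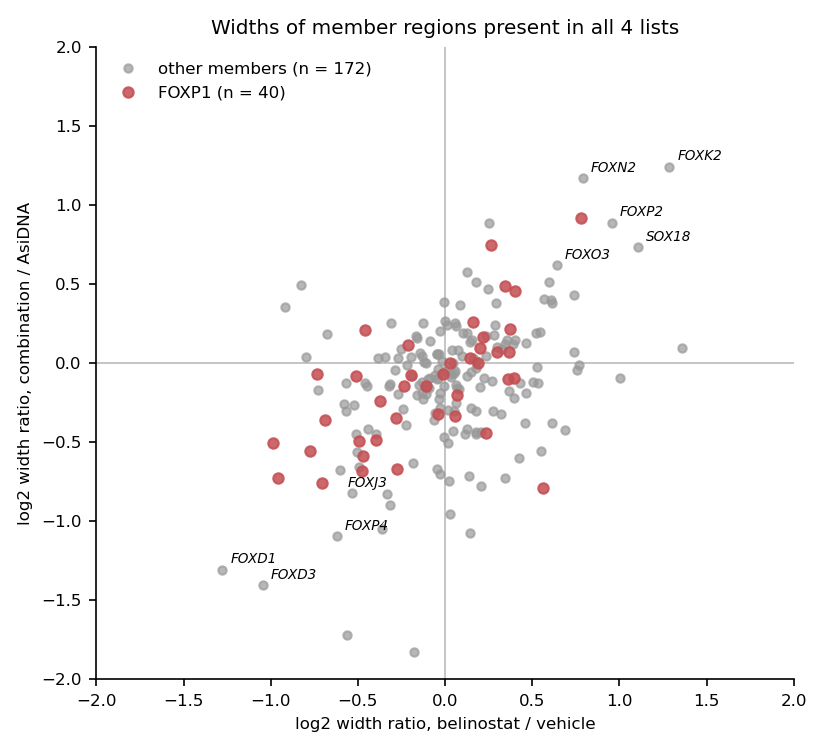
Log2 ratio of peak width for belinostat over vehicle (horizontal) and combination over AsiDNA (vertical) in the 212 member regions held by all lists, with the 40 FOXP1 regions in red; names mark regions at least 1.5 times wider or narrower on both axes, FOXP1 regions excepted. Wider regions (FOXK2, FOXN2, SOX18, FOXP2, FOXO3) lie at the upper right and narrower ones (FOXD1, FOXD3, FOXP4, FOXJ3) at the lower left, 6 on each side with FOXP1 included.

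Further regions had large ratios in at least 1 comparison. SOX10, the SoxE gene of oligodendrocytes and neural crest, had its single region in POLR2F (chr22:37964850-37966329), 435, 1117, 737 and 787 bp wide, a ratio of 2.57 for belinostat over vehicle. The SOX10 end itself had no peak in any list. FOXC2, a gene of lymphatic vessels and mesenchyme, had a region over its lower-coordinate end (chr16:86566525-86567502) 364, 412, 978 and 724 bp wide, the largest ratio for AsiDNA over vehicle at 2.69. A region shared by the FOXC2 and FOXL1 windows (chr16:86577784-86578938) was 894, 790, 935 and 263 bp wide, with combination the low list. FOXC1 had a gene-body region (chr6:1611477-1612297) 580, 333, 757 and 776 bp wide, with belinostat the low list. A SOX5 region (chr12:24027327-24028319) was 783, 993, 458 and 277 bp wide. In SOX5 both AsiDNA lists were lower, while in FOXC2 both were higher. Both AsiDNA lists were also higher in a FOXK2 region (chr17:82530763-82531998, 413, 515, 892 and 714 bp) and in a FOXN3 region beneath FOXN3-AS1 (chr14:89417133-89417695, 254, 293, 507 and 375 bp). Near the start of FOXN3 (chr14:89617882-89618663) the widths were 680, 384, 326 and 459 bp, vehicle being the widest. A region beside SOX15 (chr17:7590476-7591165) was 462, 313, 690 and 209 bp wide, both belinostat lists being narrower.

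Covered sequence of further members known in glia or brain was as follows. SOX4 had 7 regions, 4 in all lists, and 2394, 2339, 3151 and 2430 bp of covered sequence, AsiDNA being the highest. Upstream of SOX4, the region chr6:21588052-21588457 was present in vehicle and AsiDNA only, and chr6:21588828-21589544 was present in all lists but vehicle. SOX6 had 5412, 4454, 6238 and 4708 bp, both belinostat lists being lower, but the difference between vehicle and belinostat was under a factor of 1.25. SOX5 had 10506, 10063, 10760 and 8475 bp, with 11 of 35 regions in all lists. FOXM1 had 1980, 2199, 2389 and 2230 bp from 4 regions, 3 of them in all lists. FOXO3 had 10138, 11407, 10263 and 9941 bp with 19 of 26 regions in all lists, and FOXP2 had 4913, 5018, 6587 and 5151 bp with 9 of 23. FOXJ1, the factor of motile cilia, had 951, 1003, 1168 and 921 bp. SOX21, a SoxB2 gene, had 440, 438, 1370 and 0 bp from 2 regions. Of the AsiDNA bases, 1143 lay in a region that vehicle and belinostat also held and combination lacked, and 227 in a region held by AsiDNA alone.

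Genes that work with these factors were taken from lists of textbook members. All 25 genes that regulate FOXO proteins and all 25 target genes of FOXO proteins and FOXM1 had an end peak in every list, as had 64.1% of all protein-coding genes. Of 20 partners of SOX factors, 14 had an end peak in every list, 4 in none (PAX6, POU3F3, NKX2-2 and POU3F4) and 2 in some lists, namely POU3F1 in both single-drug lists and EGR2 in vehicle and combination. Of 16 SOX target genes, 7 had one in every list and 9 in none. Less covered sequence with belinostat on both backgrounds was found for TLE2, POU3F3 and EP300 among the partners and for GADD45A and CENPF among the FOXO and FOXM1 targets, and more was found for ACAN among the SOX targets. Over all genes the shares were 5.63% less and 6.95% more. The cell type was checked against markers of U87 cells and of other cells. Of 10 mesenchymal and glial glioma markers, 9 had an end peak in every list, and GFAP, the astrocyte filament, had none. Oligodendrocyte markers had 0 of 4 in any list, endothelial markers 0 of 3 in all lists, neuronal markers 4 of 5, epithelial markers 2 of 4, and blood and microglial markers 2 of 5. Of these markers KRT18 had more covered sequence with belinostat on both backgrounds and S100B and MOBP had less. CDH5, an endothelial cadherin, had an end peak in both belinostat lists only, the pattern of FOXE3 and FOXN4. Summed covered sequence of the endothelial markers was 12078, 15702, 13942 and 13953 bp, that of the epithelial markers 9286, 15553, 9987 and 10446 bp, and that of the neuronal markers 24517, 28945, 28811 and 27382 bp. These 3 sums were higher in belinostat than in vehicle. So was that of the mesenchymal and glial glioma markers, at 37375 bp in vehicle and 38183 bp in belinostat. Those of the oligodendrocyte markers (5162 and 4938 bp) and of the blood and microglial markers (8402 and 8280 bp) were lower in belinostat. In combination against AsiDNA the neuronal sum was lower, the endothelial sum differed little and the epithelial sum was higher. The part of these sums in the values of the FOX and SOX genes was not tested.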

How the data were processed

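NicE-seq libraries from 16 samples were grouped by the treatment field of the labels into vehicle, belinostat, AsiDNA and combination. The submitters' processing notes name the hg38 build and the tools deepTools, MACS2, Picard, SAMtools, Bowtie2 and Trim Galore 0.5.0. Tool options and the pooling of libraries are not given here. The authors deposited 1 peak list per group. Each peak has a fold enrichment, which is a ratio over local background, a −log10 p-value and q-value (lowest −log10 q 1.30) and a summit offset, all set by the authors' peak caller. Fold enrichment served to rank peaks inside each list.

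Peaks on chromosomes 1 to 22 and X that overlapped by at least 1 bp were merged into regions, and the lists holding a peak gave 1 of 15 patterns. A region belonged to a gene when it lay within 10 kb of its span in the RefSeq table (GRCh38.p14). That table has no exons, and no genome sequence was used. Gene ends were scored within 1000 bp. Width is the number of bases under peaks of a list in a region. Transcript starts and upstream sequence came from a RefSeq sequence table that matched 43 of 63 members. Named genes were those with an end that differed between lists, those with no region, the 5 with most regions or largest covered share, the best ranked regions of each pattern, the largest and smallest width ratios, the widest and best ranked regions, and 20 members known in glia or brain. The members, the gene lists and this rule were chosen with earlier results of these data known. The values of 1 member are not reported here. With 1 list per group no test was run. Varied settings were the q threshold, equal list lengths, overlap, windows, and the folds. As a check of the code, 8000 of 8000 regions were recovered on simulated lists of well-separated regions. Split or adjacent peaks were not simulated. Python 3.11.15, numpy 2.4.6, pandas 2.3.3, scipy 1.17.1 and matplotlib 3.10.9 were used.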

Additional observations from a re-analysis of the deposited data

Results flagged for a closer look

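Covered sequence of 3 genes moved with belinostat by at least 1.5 times in opposite directions on the vehicle and AsiDNA backgrounds, and the difference between backgrounds was not tested. SOX14, a SoxB2 gene of interneurons, gained 197 bp in belinostat over vehicle and changed by -466 bp in combination over AsiDNA, from 1 region held by both single-drug lists only. FOXI1, a factor of ion-transporting epithelium, gained 942 bp against vehicle and changed by -278 bp against AsiDNA, with 3 regions of which 1 was in all lists. FOXD4, whose near-identical copies make its reads uncertain, gained 534 bp and changed by -252 bp. Each rests on 2 regions or fewer that differ between lists.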

How the results depend on the processing

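Of 73 values under other settings, 57 were within 1.5 times of the reported count, or on the same side of 1 for a median width ratio, and 16 were not. With peaks at a −log10 q of at least 5, regions in both AsiDNA lists only numbered 2 in place of 5, gene ends open in 1 to 3 lists 4 in place of 7, and genes with more or less covered sequence under belinostat 5 and 4 in place of 8 and 2. A margin that asked each present peak for that threshold left 1 region in both AsiDNA lists only. Gene ends open in 1 to 3 lists numbered 3 within 500 bp, 12 within 2000 bp and 0 within 1 kb of the transcript start alone. Without the 10 kb extension, 13 regions were in both belinostat lists only. With 50 kb there were 58 of these, 30 in both lists without belinostat only, 405 in all lists, 9 in both AsiDNA lists only and 12 in both lists without AsiDNA only. A covered fold of 1.1 gave 6 genes with less, and a fold of 1.5 gave 5 with more. The start windows, the covered folds, the q threshold for covered sequence, the limit of 9 regions and the FOXP1 counts were chosen after seeing the data. No paired analysis was possible because each group has 1 list. Depth is unknown, so a peak missing from a list may be below its detection limit.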
